A study of Mus musculus with 24 samples.

Results

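Small nucleolar RNAs (snoRNAs) and their relatives of the Cajal body were followed in nuclear RNA of 4 mouse embryonic stem (ES) cell lines with or without the m6A methyltransferase genes *Mettl3* and *Mettl14*. The genes were chosen by symbol alone: Snord for the box C/D class, Snora for the H/ACA class and Scarna for the Cajal body class, each followed by a digit, with at least 1 count in both the RNA-seq and the MeRIP-seq count table. This gave 85 genes of the 47937 genes listed in both tables: 52 box C/D, 24 H/ACA and 9 Cajal body genes.

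Both assays were run on 4 lines with 2 biological replicates each. WT26 is a wild-type line of mixed 129/Sv and C57Bl6 background. The *Mettl14* KO line is a single clone made from WT26 with CRISPR-Cas9 and carries a homozygous frameshift in the part of *Mettl14* that encodes the MT-A70 domain. RBC is an engineered wild-type line, also of mixed 129/Sv and C57Bl6 background, that carries BirA-V5 at *Rosa26* and Cre-ERT2. The *Mettl3* KO line is a single clone derived from RBC that keeps both of these alleles. Knockout and clone therefore cannot be told apart in either comparison. RNA-seq gave 8 libraries. MeRIP-seq, in which sonicated RNA is precipitated with an antibody against m6A, gave an input and an IP library for each replicate, 16 in all. Counts per library totalled 11321459 to 13743181 in RNA-seq, 9394163 to 22366463 in the inputs and 10828364 to 28441282 in the IPs. Reads of *Mettl14* were not lost in its knockout (296 and 316 normalised counts against 401 and 358 in WT26), nor were those of *Mettl3* in the *Mettl3* KO line (880 and 821 against 928 and 979 in RBC), so that the level of either gene does not check the labels. The summed level of 8 ES cell markers was 27226 to 27656 normalised counts in WT26, 19443 to 19804 in *Mettl14* KO, 24630 to 24756 in RBC and 17492 to 17585 in *Mettl3* KO, all 8 being detected in every line. The summed level of 4 fibroblast markers was 81.4 to 84.8, 27.3 to 29.0, 101.2 to 110 and 44.3 to 62.4 in the same order, and that of 3 primitive endoderm markers 30.7 to 33.3, 78.9 to 81.1, 22.7 to 41.4 and 21.7 to 33.2. These sums hide opposite changes. *Thy1* made up most of the fibroblast sum in WT26 (75.1 and 79.4). In *Mettl3* KO it fell (log2 fold change -2.62), while *Col1a2* rose (2.26) and *Col1a1* changed by 0.06. Of the 8 ES cell markers, *Klf4* rose in *Mettl3* KO (0.58) and the other 7 fell, *Dppa5a* the most (-2.03). *Col3a1*, a fibroblast marker, had no counts in WT26, *Mettl14* KO or RBC, and 0.87 and 6.04 normalised counts in *Mettl3* KO. Every other marker had counts in every line. The part of these shifts in the results was not tested. In bulk RNA, fewer cells with a transcript and less transcript per cell cannot be told apart.

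Box C/D snoRNAs guide the methyltransferase fibrillarin to the 2′-O-methylation sites of rRNA and spliceosomal RNA through base pairing, and are named after the short boxes C and D near their ends. H/ACA snoRNAs fold into hairpins that guide the pseudouridine synthase dyskerin, and end in an ACA triplet a few bases before the 3′ end. Cajal body RNAs contain the boxes of one class or of both, and guide the same changes on spliceosomal RNAs. In mammals most of them are cut out of introns of host genes, many of which encode ribosomal proteins or proteins of the translation machinery, and a few, such as Snord118 (U8) and Snord13 (U13), are transcribed from genes of their own.

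Sequences are shown for the genes that the comparisons turn on, as GENCODE transcripts of mouse build GRCm38. Capitals mark TGATGA (the consensus of box C) and the last CTGA (box D) in box C/D genes, and the last ACA in H/ACA genes. Snord118, at chr11:69073427-69073561 (plus strand), lay in no host gene and gave almost no IP reads. Snord42b, at chr11:78183056-78183124 (minus strand), shares 22 bases with exons of its host *Rpl23a* and was the only gene with a higher mean in IP than in input in all 4 lines. The only stretch that could be marked in it is box D.
Snord118: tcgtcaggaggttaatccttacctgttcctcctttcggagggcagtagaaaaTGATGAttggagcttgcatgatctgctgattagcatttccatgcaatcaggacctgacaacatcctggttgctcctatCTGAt
Snord42b: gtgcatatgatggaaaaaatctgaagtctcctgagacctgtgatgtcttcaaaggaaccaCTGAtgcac
The Snora73 copies share 96.6% of their 205 bases and start 453 bases apart inside *Rcc1* and *Snhg3*. They are shown because reads of these copies can be assigned to either. Snora73a lies at chr4:132352775-132352979 (minus strand) and Snora73b at chr4:132352322-132352526 (minus strand).
Snora73a: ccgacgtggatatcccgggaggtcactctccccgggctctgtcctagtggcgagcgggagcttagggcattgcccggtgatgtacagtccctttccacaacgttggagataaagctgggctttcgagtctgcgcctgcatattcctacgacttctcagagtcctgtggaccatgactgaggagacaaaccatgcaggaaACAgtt
Snora73b: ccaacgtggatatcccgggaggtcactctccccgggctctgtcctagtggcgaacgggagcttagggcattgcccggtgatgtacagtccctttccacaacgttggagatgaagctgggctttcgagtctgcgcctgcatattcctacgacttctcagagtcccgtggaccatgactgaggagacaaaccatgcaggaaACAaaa
The next are the 4 genes called in an RNA-seq comparison: Snora21 in an intron of *Rpl23* at chr11:97781639-97781775 (minus strand), Snora41 in *Eef1b2* at chr1:63179004-63179135 (plus strand), Snord87 in *Snhg6* at chr1:9942463-9942549 (minus strand) and Snord82 in *Ncl* at chr1:86356261-86356330 (minus strand).
Snora21: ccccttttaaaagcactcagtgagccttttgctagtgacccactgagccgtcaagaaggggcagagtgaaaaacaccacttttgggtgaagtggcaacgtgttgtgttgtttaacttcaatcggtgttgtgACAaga
Snora41: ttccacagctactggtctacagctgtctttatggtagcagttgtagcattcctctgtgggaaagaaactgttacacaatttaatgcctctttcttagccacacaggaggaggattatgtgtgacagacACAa
Snord87: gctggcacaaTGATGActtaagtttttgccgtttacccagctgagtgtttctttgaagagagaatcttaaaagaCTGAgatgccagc
Snord82: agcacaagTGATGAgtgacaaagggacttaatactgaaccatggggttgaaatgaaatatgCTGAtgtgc

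The labels were checked against these sequences. TGATGA within the first 30 bases together with CTGA within the last 30 was present in 33 of 52 box C/D genes (63.5%) and in 0 of 24 H/ACA genes, against 0.137% of all transcripts cut to the median box C/D length of 82 bases. An ACA within the last 8 bases was present in all 24 H/ACA genes and in 7 of 52 box C/D genes, against 9.31% of all transcripts cut to the median H/ACA length of 134 bases. These motifs were searched on the transcript strand, and boxes that differ from the letters searched were not counted. The box C/D genes were 64 to 238 bases long, 42 of them no longer than 100 bases. The H/ACA genes were 127 to 205 bases long (median 134) and the Cajal body genes 70 to 414 bases (median 140). Of the 85 genes, 77 lay inside an annotated gene on the same strand and 25 shared bases with an annotated exon on the same strand, 17 with one of the host and 8 only with one of another entry, such as a microRNA gene. A further 48 genes that match the symbols had counts in MeRIP-seq only, and all 48 share bases with an exon of another gene on the same strand. Their mean input level ranged from 0.322 to 460 normalised counts, with Snord22 the highest. Of 17 Snord116 copies, 1 had counts in both assays, and no symbol of the tandem families Snord113, Snord114 or Snord115 matched the rule.

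The class with the most genes did not carry the most reads. Box C/D genes took 18.7 to 26.9% of the counts of all 85 genes in the RNA-seq libraries, H/ACA genes 32.8 to 43.9% and the 9 Cajal body genes 29.2 to 42.2%. Together the 85 genes took 0.203 to 0.291% of all counts in RNA-seq and 0.0706 to 0.116% in the inputs. Snora73b, Scarna2, Scarna13, Snord17 and Scarna6 alone took 67.4% of the RNA-seq counts of the 85 genes. Per kilobase of gene, the highest H/ACA level in RNA-seq was that of Snora73b, with 32821 normalised counts per kilobase as the mean of 8 libraries. Snora78 (14245, in *Snhg9*), Snora57 (6715), Snora17 (3254) and Snora23 (2734, in *Ipo7*) followed on the same scale. The leading box C/D gene was Snord17 in *Snx5* (12923 normalised counts per kilobase), followed by Snord43 in *Rpl3* (4392), Snord104 (4261), Snord83b in *Rpl3* (3431) and Snord49a (2669). The leading Cajal body genes were Scarna13 in *Snhg10* (14330), Scarna2 (12392), Scarna6 in *Atg16l1* (7076), Scarna9 in *Cep295* (5630) and Scarna17 (433). The median levels of the classes in RNA-seq lay closer together, at 545 normalised counts per kilobase for box C/D, 697 for H/ACA and 433 for Cajal body genes. This did not hold in the inputs, where the Cajal body median was the highest. The input medians were 473 for box C/D, 679 for H/ACA and 2103 for Cajal body genes.

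**Figure D1:**
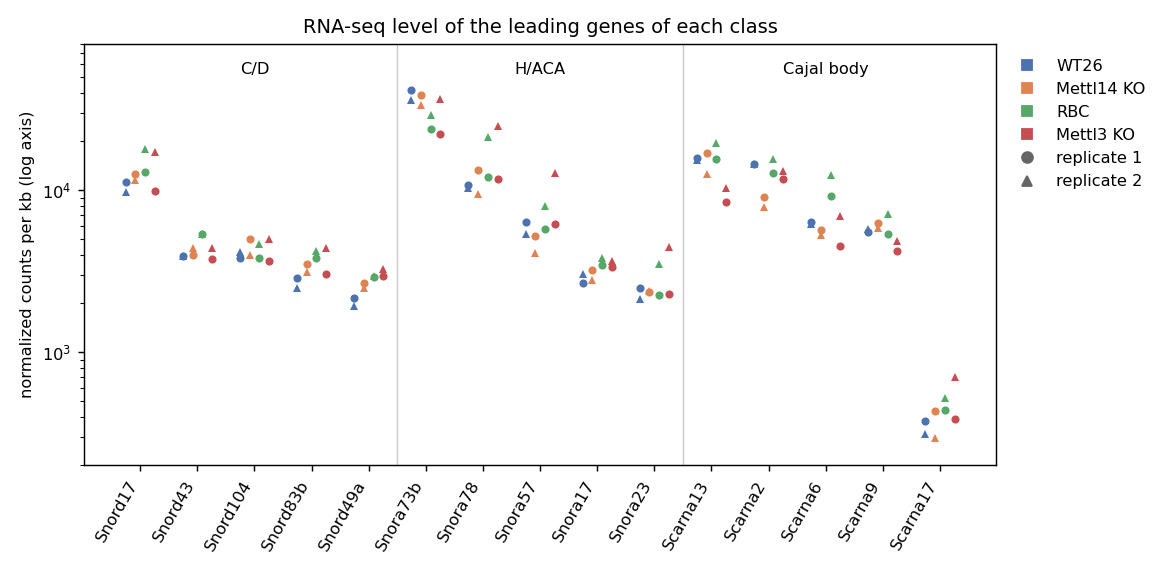
RNA-seq level of the 5 leading genes of each class, in normalised counts per kilobase of gene on a log axis; each point is a library, coloured by line, with circles for replicate 1 and triangles for replicate 2. Snora73b is the highest and Scarna17 the lowest in every library.

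A few genes had very different levels in the tables. Snora73a had 338 normalised counts per kilobase in RNA-seq and 18848 in the inputs, while Snora73b had 32821 and 6410. Scarna10, which shares bases with exons of *Gm28967* and *Ncapd2*, had 10.8 in RNA-seq and 4367 in the inputs. The order of the Snora73 copies was thus reversed between the tables. The MeRIP-seq counts assign reads with up to 100 positions, whereas how the RNA-seq counts treat such reads is not given in the sources used here. The part of this difference in the levels was not tested.

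The first comparison asks how nuclear RNA differs in cells without *Mettl14*. Of the 73 genes tested in RNA-seq, Snora21, an H/ACA snoRNA, rose and none fell at an adjusted p not over 0.05 combined with an absolute log2 fold change over 1 (edgeR's quasi-likelihood test, Benjamini-Hochberg over 17021 genes), where 14.5% of all genes tested passed. Snora21 had 365 and 359 normalised counts in *Mettl14* KO and 164 and 142 in WT26. The groups did not overlap, the log2 fold change was 1.24 (SE 0.233, n = 2 per line, edgeR adjusted p = 0.00024), and its host *Rpl23*, a ribosomal protein gene, changed by 0.21. The *Mettl3* KO libraries held 172 and 350.5 and the RBC libraries 174 and 282, so that the replicates of those lines did not agree, replicate 2 being the higher in both. Without the threshold on fold, 7 of the 73 genes were higher and 3 lower, where 25.5% of all genes were higher and 27% lower. Those higher were Snora21, Snora68 (0.73), Snora62 (0.54), Snora28 (0.44), Snord82 (0.78), Snord100 (0.53) and Snord49a (0.32). Those lower were Scarna2, Snora73a (-0.57) and Snora2b (-0.49). Scarna2, a Cajal body RNA that is transcribed from its own gene, had 3737 and 3278 normalised counts in *Mettl14* KO and 6012 and 5990 in WT26. It had the smallest adjusted p of all 73 genes (log2 fold change -0.77, SE 0.0798, edgeR adjusted p = 2.71e-07), and its values in the other lines, 5305 and 6476 in RBC with 4838 and 5407 in *Mettl3* KO, were also above those of *Mettl14* KO. The median log2 fold change was 0.13 over the 73 genes against 0.00 over all genes, with 0.20 for box C/D, 0.09 for H/ACA and -0.14 for the 6 Cajal body genes tested. DESeq2 on the same libraries called 3 of the genes higher and 1 lower at the adjusted p alone, the share of all genes in DESeq2 not being given here.

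The same question for *Mettl3* was asked against its parental line RBC. None of the 73 genes passed the adjusted p and the fold in edgeR or in DESeq2, where 13.6% of all genes tested passed in edgeR. At an unadjusted p of at most 0.05, 18 genes passed in edgeR and 6 in DESeq2. The shares of all genes at this p are not given here, so these counts show no excess. In edgeR that share is at least the one at the adjusted p, which follows. At the adjusted p alone, 4 genes were higher and 10 lower, where 25.2% of all genes were higher and 28.1% lower. Of the 6 Cajal body genes tested, 4 were among those lower. Scarna13 had 2334 and 2849 normalised counts in *Mettl3* KO and 4266 and 5377 in RBC (log2 fold change -0.90, SE 0.116, edgeR adjusted p = 3.7e-06). Scarna6 had 1200 and 1827 in *Mettl3* KO and 2453 and 3270 in RBC (-0.93, SE 0.132, edgeR adjusted p = 1.17e-05). For both genes the lines did not overlap, and the adjusted p held without any one of the 4 libraries. The WT26 libraries, with 1689 and 1649 counts of Scarna6, lay inside the range of *Mettl3* KO. Scarna13 differed in this respect, with 4361 and 4213 in WT26, above both *Mettl3* KO libraries. Scarna9 (-0.47) and Scarna2 (-0.20) completed the Cajal body genes that were lower, and Scarna9 missed the threshold without RBC replicate 2 (adjusted p = 0.109). Among the other genes that were lower were the H/ACA genes Snora31 (-0.49) and Snora41 (-0.39) and the box C/D genes Snord69 (-0.42), Snord43 (-0.40), Snord32a (-0.38) and Snord70 (-0.35).

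Those higher in *Mettl3* KO were Snord118 (0.94), Snora19 (0.93), Snord71 (0.82) and Snord53 (0.51). Snord118 is needed for processing of the large ribosomal subunit RNAs. Its normalised counts were 217 and 464 in *Mettl3* KO and 110 and 235 in RBC. These ranges overlapped, RBC replicate 2 (235) being above *Mettl3* KO replicate 1 (217). *Mettl3* KO was higher than RBC at each replicate number, but nothing states that a number is shared between the lines. The difference was 0.31 without *Mettl3* KO replicate 2 (edgeR adjusted p = 0.368) and 0.52 without RBC replicate 1 (edgeR adjusted p = 0.164). This replicate stood apart for the genes as a whole. Of the 73 genes, 60 were higher in replicate 2 than in replicate 1 of *Mettl3* KO (median log2 ratio 0.39) and 60 in RBC (0.28), where 50.3% and 51.8% of all genes were. In WT26 and *Mettl14* KO, 29 and 25 of the 73 genes were higher in replicate 2. The summed normalised counts of the 85 genes were 24281 and 36064 in *Mettl3* KO and 29513 and 38308 in RBC, against 31672 and 29400 in WT26 and 30538 and 26247 in *Mettl14* KO. The counts of genes past the adjusted p moved accordingly, from 4 higher and 10 lower to 2 higher and 20 lower without *Mettl3* KO replicate 2, 13 higher and 5 lower without *Mettl3* KO replicate 1, 3 and 17 without RBC replicate 1, and 4 and 3 without RBC replicate 2. The direction of the snoRNA genes as a group in *Mettl3* KO thus rested on which library was used, and the median over the 73 genes was 0.00, as it was over all genes.

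**Figure D2:**
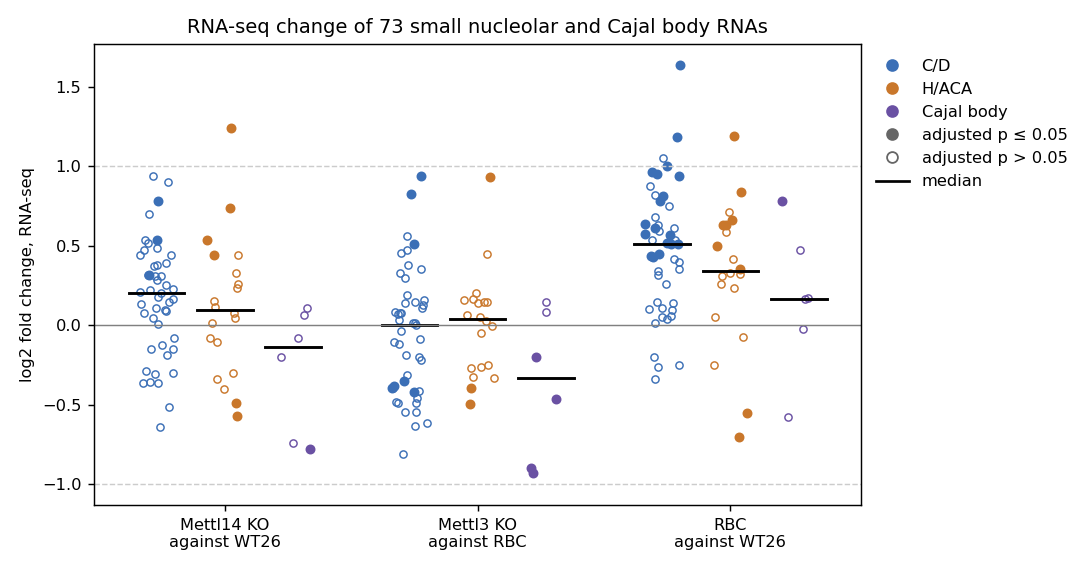
Log2 fold change in RNA-seq of the 73 genes tested, by class, in the 3 comparisons between lines; each point is a gene, filled where the adjusted p is not over 0.05, bars are class medians, and dashed lines mark a log2 fold change of 1 in either direction. In RBC against WT26 most points lie above 0 (63 of 73), while the medians over the 73 genes are 0.13 and 0.00 in the knockout comparisons.

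Between the control lines, the snoRNA genes were shifted towards higher levels in RBC. The libraries compared are those that serve as controls above, so these values are not independent of the knockout comparisons. Of 73 genes, 3 rose and 0 fell in RBC at the adjusted p and the fold, where 8.98% of all genes passed. Snord87 had 66.7 and 71.0 normalised counts in RBC and 20.8 and 23.6 in WT26 (log2 fold change 1.64, SE 0.282, edgeR adjusted p = 0.00016). Snora41 had 177 and 215 against 80.5 and 92.3 (1.19, SE 0.171, edgeR adjusted p = 2.39e-05). Snord82 had 107 and 126 against 57.0 and 45.1 (1.18, SE 0.183, edgeR adjusted p = 5.32e-05). In none of the 3 did the lines overlap, and all 3 remained called without any one library. At the adjusted p alone, 26 genes were higher and 2 lower (Snora73b, -0.55, and Snora47, -0.70), where 19.7% of all genes were higher and 19.2% lower. The median was 0.43 over the 73 genes and -0.01 over all genes, with 0.51 for box C/D, 0.34 for H/ACA and 0.17 for Cajal body genes. RBC replicate 2, with the higher snoRNA sum, had a part in the size of this shift: without it the median was 0.27, with 14 genes higher and 2 lower, and without RBC replicate 1 it was 0.57, with 34 higher and 0 lower.

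The hosts of these genes moved with them to different degrees. In RBC against WT26, *Snhg6*, the noncoding host of Snord87, rose by 1.47, *Eef1b2* (host of Snora41, a translation elongation factor) by 0.81 and *Ncl* (host of Snord82, encoding nucleolin) by 0.76 on the log2 scale, less than the snoRNA in each case. Over 64 snoRNA and host pairs with 54 hosts, Spearman's rho between the log2 fold changes was 0.63 in this comparison, 0.36 in *Mettl14* KO against WT26 and 0.38 in *Mettl3* KO against RBC. These are correlations across genes of the same libraries, and genes are not independent replicates. The median change of the snoRNAs in RBC was 0.47 and that of their hosts 0.17, the snoRNA being below its host in 20 of 64 pairs. By their medians, hosts were lower than their snoRNAs in either knockout comparison as well. For *Mettl3* KO against RBC the host median was -0.32 and the snoRNA median -0.02, the snoRNA being below its host in 12 of 64 pairs. The corresponding values for *Mettl14* KO against WT26 were -0.10, 0.14 and 13 of 64. *Rpl23* and *Eef1b2* fell by 0.65 and 0.85 in *Mettl3* KO, while Snora21 changed there by 0.16 and Snora41 by -0.39.

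**Figure D3:**
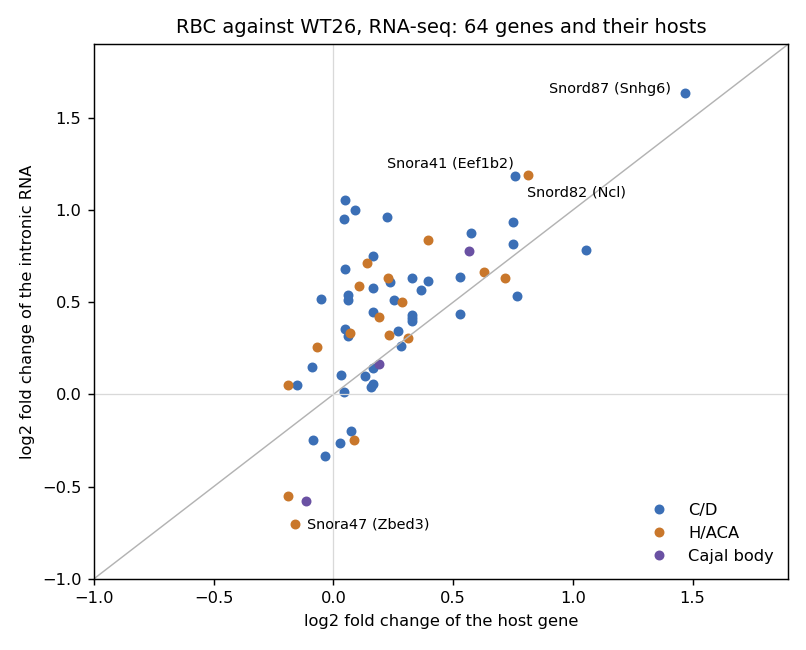
Log2 fold change of the snoRNA or Cajal body RNA gene against that of its host gene in RNA-seq, RBC against WT26, for 64 pairs; each point is a pair coloured by class, and the diagonal marks equal change. 20 of the 64 points lie below the diagonal, and Snord87 with *Snhg6* stands at the upper right (1.64 and 1.47).

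Genes for the proteins that bind and mature these RNAs were also followed. Of 25 genes for snoRNP proteins and assembly factors 24 were tested, and none passed the fold. At the adjusted p alone 2 were higher and 13 lower in *Mettl14* KO (25.5% and 27% of all genes), 1 and 14 in *Mettl3* KO (25.2% and 28.1%), and 11 and 1 in RBC against WT26 (19.7% and 19.2%). *Coil*, which encodes coilin, the scaffold protein of Cajal bodies, had the lowest value of the list in *Mettl14* KO (-0.99), and also fell in *Mettl3* KO (by 0.30). Among the box C/D core proteins, the log2 fold changes in *Mettl14* KO, *Mettl3* KO and RBC were -0.08, -0.15 and 0.12 for fibrillarin (*Fbl*), none past the threshold, 0.32, 0.18 and 0.57 for *Nop56*, and 0.00, -0.42 and 0.75 for *Nop58*. *Snu13* gave -0.37, -0.36 and 0.10, the last not past the threshold. Among the core proteins of the H/ACA class, the log2 fold changes were -0.43, -0.41 and 0.15 for dyskerin (*Dkc1*) and -0.28, -0.29 and 0.33 for *Nhp2*. *Nop10* gave -0.34, -0.31 and 0.18, the last not past the threshold. *Gar1* gave 0.02, -0.08 and 0.19, none past the threshold. *Wrap53*, also on the list, gave -0.36, 0.06 and 0.38, the second not past the threshold. Of 17 noncoding host genes listed, 15 were tested. None passed the adjusted p and the fold in *Mettl14* KO (14.5% of all genes), where 3 were higher and 11 lower at the adjusted p alone (25.5% and 27% of all genes). In *Mettl3* KO 3 fell (13.6% of all genes passed in either direction), namely *Meg3* (-7.59), *Rian* (-7.17) and *Snhg14* (-1.09), which host the Snord113, Snord114, Snord115 and Snord116 families or lie in the same imprinted loci. In RBC against WT26 *Snhg6* (1.47) and *Gas5* (1.02) rose (8.98% of all genes passed in either direction). At the adjusted p alone, 0 of the 15 were higher and 12 lower in *Mettl3* KO (25.2% and 28.1% of all genes). In RBC against WT26, 12 were higher and 2 lower (19.7% and 19.2% of all genes).

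The input libraries of MeRIP-seq measured the same lines a second time, in sonicated RNA. None of the 78 genes tested was called in any of the 3 comparisons by edgeR or by DESeq2, where 0.398%, 0.752% and 0.584% of 22621 features were called in *Mettl14* KO, *Mettl3* KO and RBC. At an unadjusted p of at most 0.05 there were 0, 1 and 6 genes in edgeR, the 1 being Snora31 in *Mettl3* KO (-0.88, adjusted p = 0.27). The shares of all features at the unadjusted p are not given here. Of the genes past the adjusted p alone in RNA-seq, 7 of 10 had the same sign in the inputs in *Mettl14* KO (not Snora2b, Snora73a or Snord49a), 12 of 14 in *Mettl3* KO (not Snora19 or Snord71) and 27 of 28 in RBC against WT26 (not Snord55). Scarna2 had 1185 and 1141 normalised counts in *Mettl14* KO inputs and 1916 and 2224 in WT26 inputs (-0.83, edgeR adjusted p = 0.61), without overlap. Scarna13 had 805 and 1219 in *Mettl3* KO and 1303 and 1559 in RBC (-0.50, edgeR adjusted p = 0.793). The differences between RBC and WT26 were 1.36 for Snord87, 0.97 for Snora41 and a median of 0.30 over the 78 genes, against 0.00 over all features, with edgeR adjusted p-values of 0.252 and 0.267 for the former 2 genes.

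IP over input compares each gene's share of the m6A antibody fraction with its share of the starting RNA, within a line. Most of these genes were depleted in the IP in WT26, *Mettl14* KO and RBC, fewer passed in *Mettl3* KO, and none was enriched in any line. Of the 78 genes tested, 53 were depleted in WT26, 51 in *Mettl14* KO, 51 in RBC and 29 in *Mettl3* KO (edgeR adjusted p of at most 0.05 and log2 fold change below -1), where 13.5%, 9.91%, 11.1% and 1.86% of all features were. No gene was enriched in edgeR or DESeq2 in any line, where 14.5%, 11.9%, 13.4% and 2.54% of all features were enriched, and at an unadjusted p of at most 0.05 Snord42b in *Mettl14* KO was the only one above 0. The medians over the 78 genes were -1.96, -2.07, -2.06 and -1.48 in the order given, and those over all features were 0.02, 0.01, 0.02 and -0.01. Taking all 85 genes, filtered or not, the mean of the IP libraries was below that of the inputs for 81, 81, 80 and 82 genes, and both IP libraries were below both inputs for 77, 73, 78 and 66. The summed normalised counts of the 85 genes in the IP were 12.5 and 8.06% of those in the input in the replicates of WT26 and 15.6 and 10.8% in those of RBC, while *Mettl14* KO gave 11.7 and 8.77% and *Mettl3* KO 14.2 and 20.4%. The count of calls depended on single libraries. It was 25 without WT26 input replicate 2 and 17 without WT26 IP replicate 2. In *Mettl14* KO it was 29 and 25 without input replicates 1 and 2 and 14 without IP replicate 2. In RBC it was 32 and 16 without input replicates 1 and 2 and 14 without IP replicate 2. In *Mettl3* KO it was 9 and 17 without input replicates 1 and 2, and 17 and 7 without IP replicates 1 and 2.

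**Figure D4:**
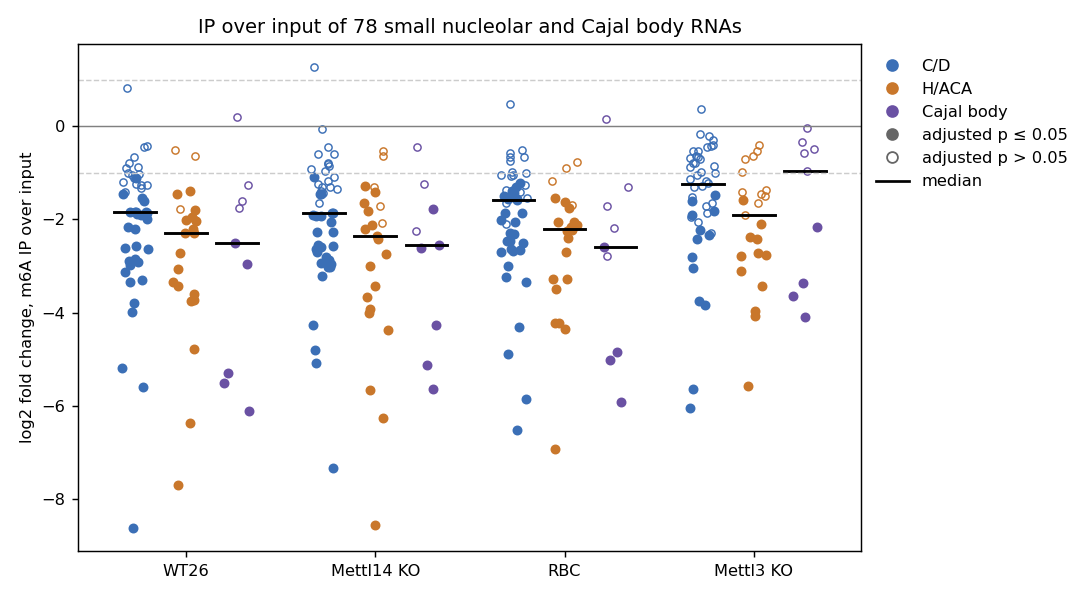
Log2 fold change of IP over input for the 78 genes tested, by class and line; each point is a gene, filled where the adjusted p is not over 0.05, bars are class medians, and dashed lines mark a log2 fold change of 1 in either direction. The box C/D medians (-1.86 to -1.25) lie above the H/ACA medians (-2.36 to -1.91) in every line; the lowest WT26 point, Snord118, had no IP counts, so that its fitted value is no bound.

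As a class, box C/D genes had higher medians of IP over input than H/ACA genes, but the 8 tested box C/D genes over 100 bases did not. With the lines in the order used above, the class medians of IP over input were -1.84, -1.86, -1.58 and -1.25 for box C/D (29, 27, 28 and 13 of 46 depleted) and -2.28, -2.36, -2.20 and -1.91 for H/ACA (19, 18, 19 and 12 of 23). The 8 box C/D genes tested that are longer than 100 bases had medians of -2.91, -3.16, -2.93 and -2.63, below those of the H/ACA genes, all of which are longer than 100 bases. Of these 8 box C/D genes, 5, 5, 6 and 4 were depleted. Their lengths are not matched to the H/ACA range of 127 to 205 bases, since Snord13 has 104 bases and Snord17 has 238. The Cajal body genes gave -2.51, -2.54, -2.60 and -0.97, with 5, 6, 4 and 4 of 9 depleted. As shares of the counts of the 85 genes, box C/D genes went from 17.3 to 25.5% in the inputs to 44.1 to 52.9% in the IPs, and were higher in the IP in 8 of 8 pairs of input and IP (mean difference 27.1 ± 4.20 percentage points, SD). H/ACA genes went from 36.3 to 56.5% to 20.7 to 30.7%, lower in 8 of 8 pairs (-20.5 ± 9.06). For both classes the two-sided exact permutation test over the 8 pairs gave p = 0.0078125, the smallest it can give, and 0.0104 after adjustment over 4 shares. The share of Cajal body genes was higher in 3 pairs and lower in 5 (exact permutation p = 0.102, adjusted 0.102). The share of the 85 genes in all counts, the fourth, was lower in the IP in 8 of 8 pairs (0.00826 to 0.0226% against 0.0706 to 0.116%), with the same p as the first. The fall of the H/ACA share rested on the Snora73 copies. Among the other 83 genes, the H/ACA share was 20.1 to 30.1% in the inputs and 19.1 to 27.3% in the IPs, higher in 3 pairs and lower in 5 (exact permutation p = 0.922), while the Cajal body share was lower in the IP in 8 of 8 pairs (38.9 to 53.7% against 18.7 to 36.0%) and the box C/D share higher in 8 of 8 (26.1 to 31.2% against 45.0 to 54.0%), each with an exact permutation p of 0.0078125. Each line gives 2 of the 8 pairs, so the pairs measure 4 lines. The knockout lines also come from the control lines, while the permutation treats all 8 pairs as independent. The class shares add up to the whole, so a fall in any class raises the others, and their p-values are not separate results.

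The classes also differ in length, and depletion followed length. All 8 genes over 150 bases were depleted in every line, with medians of -5.41 in WT26, -4.96 in *Mettl14* KO, -4.87 in RBC and -3.74 in *Mettl3* KO. They included Snora73a, Snora73b, Snora23, Snord17 and Scarna2, Scarna6, Scarna10 and Scarna13. In WT26, 21 of 30 genes of over 100 and up to 150 bases (median -2.02) and 24 of 40 genes of up to 100 bases (median -1.72) were depleted. Across the 78 genes Spearman's rho between length and IP over input was -0.50, -0.48, -0.53 and -0.42 in the 4 lines, and that between input level per kilobase and IP over input was -0.30, -0.34, -0.34 and -0.34. These are descriptions across genes of the same libraries. Length, level and class go together, and the part of each was not tested. In WT26 the 55 genes that share no bases with another exon had a median of -1.95 (37 depleted) and the 23 that do a median of -2.00 (16 depleted). GGAC, the core of the motif in which METTL3 and METTL14 methylate adenosine, was present on the transcript strand of 10 of 52 box C/D, 6 of 24 H/ACA and 3 of 9 Cajal body genes, against 30.3%, 45.6% and 47.1% of all transcripts cut to the median length of the class. In WT26 the 19 genes with GGAC had a median IP over input of -1.78 (9 depleted), and the 59 tested genes without it -2.00 (44 depleted).

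Snora73a was among the most depleted genes in every line. It had 3761 and 3316 normalised counts in the WT26 inputs and 21.6 and 11.7 in the IPs (log2 fold change -7.68, SE 0.861, edgeR adjusted p = 0.000506). In *Mettl14* KO the inputs held 4991 and 2951 and the IPs 11.1 and 9.58, and in RBC the inputs 3512 and 2161 and the IPs 30.4 and 14.1. In *Mettl3* KO the inputs held 6655 and 3565 and the IPs 23.4 and 198. Inputs and IPs were far from overlapping in each line, and replicate 2 of the *Mettl3* KO IP stood above the other 7 IPs. Snora73b gave -6.37 in WT26. Reads of these copies can be assigned to either, and their order was not the same in input and IP. In replicate 1 of *Mettl14* KO, Snora73a and Snora73b had 5566 and 2362 raw counts in the input and 17 and 37 in the IP. In replicate 1 of WT26 they had 4786 and 2517 in the input and 37 and 35 in the IP. The part of read assignment in the value of each copy was not tested. Scarna13 had 1242 and 1670 in the WT26 inputs and 43.2 and 29.7 in the IPs (-5.30), and in *Mettl3* KO 805 and 1219 in the inputs and 54.0 and 147 in the IPs (-3.35). Scarna10 (-6.11), Scarna6 (-5.51), Snord17 (-5.18) and Snora78 (-4.77) were close to it in WT26. Each of these genes had at least 340.7 normalised counts in either WT26 input.

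Snord118 and Snord13, which have genes of their own, were at or near 0 in the IPs. Snord118 had 90 raw counts in the WT26 inputs and 0 in both IPs, which makes it at least 43.9-fold lower in the IP with a floor of 3 counts over the group. With 78 counts in the inputs and 2 in the IPs of RBC, its ratio of input over IP was 66.5 (95% exact interval 17.8 to 559), and with 168 and 3 in *Mettl3* KO it was 81.1 (27.3 to 397). In *Mettl14* KO its log2 fold change was -5.08. Snord13 had 123 counts in the WT26 inputs and 3 in the IPs, a ratio of 59.9 (20.03 to 295). It gave 243 (43.0 to 9638) in *Mettl14* KO, 126 (22.0 to 5052) in RBC and 65.7 (22.0 to 322) in *Mettl3* KO, with 1, 1 and 3 counts in the IPs. The Snord13 ratios pool the replicates of a line, and replicate 1 held most of the input counts. Raw input counts of replicates 1 and 2 were 108 and 15 (WT26), 156 and 15 (*Mettl14* KO), 60 and 14 (RBC), and 133 and 3 (*Mettl3* KO). For replicate 2 of the *Mettl3* KO line, 3 input counts stood against 1 IP count, too few to show a ratio of 65.7. Intervals and floors cover counting error only, and leave out this spread between replicates. In no line did the inputs and IPs of either gene overlap. The other 6 genes without a host included Scarna2, with 1916 and 2224 in the WT26 inputs and 388 and 142 in the IPs. Not all of them were low in the IP, 6 of the 8 genes without a host being depleted in WT26. Scarna17 was the highest of the 8 there (log2 fold change 0.20). Snord104 had 187 and 73 raw counts in the WT26 inputs and 219 and 70 in the IPs.

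At the other end, the least depleted genes that passed the threshold in WT26 were Snord83b (-1.12), Snora5c (-1.39), Snora19 (-1.45), Snord87 (-1.46) and Snord72 (-1.53). Snord83b, a box C/D RNA in *Rpl3*, had 171 and 167 normalised counts in the WT26 inputs and 85.7 and 69.3 in the IPs. In *Mettl3* KO it had 226 and 238 in the inputs and 157 and 257 in the IPs, which overlapped (-0.17, edgeR adjusted p = 0.795). The H/ACA gene least low in the WT26 IPs was Snora31 in *Tpt1*, with 61.3 and 74.2 in the inputs and 53.1 and 40.5 in the IPs (-0.52, edgeR adjusted p = 0.224). Snord42b had 14.9 and 27.2 in the WT26 inputs and 25.1 and 47.7 in the IPs (0.81, SE 0.512, edgeR adjusted p = 0.225). In *Mettl14* KO it had 16.1 and 10.5 in the inputs and 24.9 and 43.8 in the IPs, without overlap (1.27, SE 0.549, edgeR adjusted p = 0.0984). In RBC and *Mettl3* KO its values were 0.47 and 0.36 (edgeR adjusted p = 0.497 and 0.686). Snord42b thus missed the threshold in every line. It and Snora31 were chosen for description after their values were seen.

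**Figure D5:**
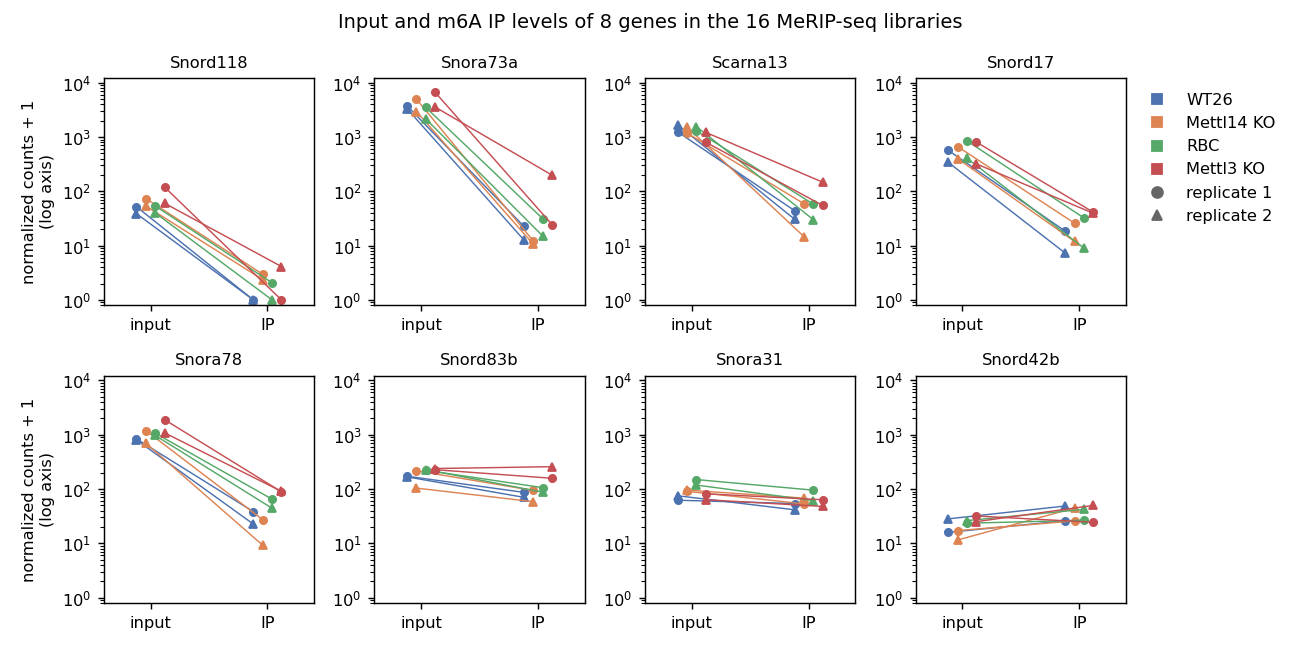
Normalised counts plus 1 (log axis) of 8 genes in the 16 MeRIP-seq libraries; points are libraries coloured by line, with circles for replicate 1 and triangles for replicate 2, and lines join the input and IP of a replicate. Snora73a lies above 2100 in all inputs and below 200 in all IPs, while the input and IP values of Snord42b lie between 10.5 and 48.9.

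Other short RNAs were low in the IP as well. In WT26 the 47 tested genes that match the symbols but lack RNA-seq counts had a median of -1.76 (33 depleted). Of the other genes annotated as snoRNAs, 164 of 289 were depleted (median -1.95), of the small nuclear RNA genes 58 of 191 (-1.82) and of the microRNA genes 156 of 450 (-1.41). Of all genes outside the symbols with up to 414 bases, the length of the longest gene here, 588 of 1824 were depleted (-1.26). This last set also holds the genes of the groups just named up to that length, so it is not a separate group. The host genes of the 85 had a median of -0.05 in WT26, with 10 of 61 depleted, and protein-coding genes one of 0.26, with 830 of 14799 depleted and 2696 enriched. The snoRNA was below its host in IP over input in 66 of 69 pairs in WT26, 67 in *Mettl14* KO, 68 in RBC and 64 in *Mettl3* KO. Depletion was therefore shared with other short RNAs and was not particular to the genes chosen here.

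The last comparison asks whether IP over input itself changed in the knockouts. It did not pass the adjusted p for any of the 78 genes in either knockout in edgeR or DESeq2, where 0% of 22621 features did in edgeR. At an unadjusted p of at most 0.05 no gene passed in *Mettl14* KO, whereas 3 did so in *Mettl3* KO, namely Scarna10 (1.83), Scarna13 (1.66) and Snora19 (1.54). The shares of all features at the unadjusted p are not given here. The median was -0.01 for *Mettl14* KO, whereas *Mettl3* KO gave 0.47, against 0.02 and 0.01 over all features. The latter was 0.27 to 1.06 when each library was left out in turn, the highest being without RBC IP replicate 1. In the IPs, more of the 78 genes were higher in replicate 1 than in replicate 2 in every line (54 in WT26, 60 in *Mettl14* KO, 64 in RBC and 43 in *Mettl3* KO), so that the replicates of the IP differ over these genes as a group. For *Mettl3* KO, 67 of the 78 genes were above 0 and 11 below. In the 69 pairs of a snoRNA gene with its host, the median change there was 0.45 for the snoRNA genes and 0.37 for the hosts.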

How the data were processed

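RNA-seq and MeRIP-seq were carried out by the authors on nuclear RNA with rRNA-depleted, stranded total RNA libraries. The deposited values are raw read counts per gene, and in MeRIP-seq also per repeat subfamily. The MeRIP-seq reads were trimmed with cutadapt 1.8.1 and mapped to GRCm38 with STAR 2.6.0c, with up to 100 positions per read, and counted with TEtranscripts. The counter, strand setting and treatment of multimapping reads for the RNA-seq counts are not given in the sources used here. RNA for MeRIP was sonicated to about 500 bases and 3 reactions were combined per replicate. Gene symbols, host genes and sequences came from the GENCODE annotation of GRCm38. A host is a gene on the same strand whose span contains the snoRNA gene.

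Counts were tested with edgeR 4.0.16 (quasi-likelihood, R 4.3.3) over all libraries of a table, with DESeq2 size factors and the filterByExpr filter, which left 17021 genes in RNA-seq and 22621 features in MeRIP-seq, 73 and 78 of them snoRNA genes. P-values were adjusted over all of these. Calls needed an adjusted p not over 0.05 combined with an absolute log2 fold change over 1, or the adjusted p alone for a change of IP over input. With 2 replicates per line, p-values measure the spread between these samples. No replicate pair agreed within sampling noise. Normalised counts are counts divided by size factors. The alternatives were DESeq2 1.42.0, TMM and library-size scaling, other filters, the compared libraries only, a replicate block and leaving out each library. The pairing was checked from the labels and the deviations from the group means: input and IP of the same replicate number come from the same RNA (correlations 0.195 to 0.280), whereas nothing states that a number is shared between lines. Across lines the correlations were -0.0713 (*Mettl14* KO with WT26), 0.453 (*Mettl3* KO with RBC) and -0.172 (RBC with WT26) in RNA-seq and 0.452, 0.371 and 0.251 in the inputs. These correlations do not settle whether a number is shared between lines. The fit without a block was kept as the main fit, also for IP over input, and the fits with a block are given as alternatives. The fits were tested on simulated data.

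The genes, lists and tests were chosen with earlier results of these data known. Named are the 5 highest genes per class, called genes, and the 5 highest and lowest values of IP over input past the adjusted p in a line, of which WT26 is given in full. Other genes past the adjusted p alone, Snord42b, the genes traced into the inputs, the tests of the class shares, also without the Snora73 copies, and the difference between the knockouts were added after values were seen.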

Additional observations from a re-analysis of the deposited data

Results flagged for a closer look

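The change in *Mettl14* KO against WT26 differed from that in *Mettl3* KO against RBC at 16 of the 73 snoRNA genes tested in RNA-seq, by a test of the difference itself (edgeR adjusted p of at most 0.05), where 43.2% of all genes did. The difference was positive for 13 genes, with log2 values of 0.49 for Snord43, 0.55 for Snord70, 0.58 for Scarna9, 0.70 for Snord69, 0.73 for Scarna6, 0.77 for Snora28, 0.79 for Snora62, 0.82 for Scarna13, 0.82 for Snord82, 0.84 for Snora41, 0.85 for Snord100, 1.06 for Snord73a and 1.07 for Snora21. It was negative for 3 genes, -0.79 for Snora57, -0.64 for Snora2b and -0.57 for Scarna2. Scarna13 and Scarna6 were lower in *Mettl3* KO (-0.90 and -0.93), with -0.08 and -0.20 in *Mettl14* KO. Scarna2 was lower in *Mettl14* KO (-0.77), with -0.20 in *Mettl3* KO. These differences also hold the difference between the clones and between the parental lines, which cannot be told apart from that between the genes knocked out.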

How the results depend on the processing

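With the adjusted p alone, 10, 14 and 28 snoRNA genes passed in RNA-seq in *Mettl14* KO, *Mettl3* KO and RBC, in place of 1, 0 and 3. Scaling by library size gave 2 (Snord118 and Snora19, both higher) in *Mettl3* KO, where it moved the median of all genes to 0.15. With at least 10 counts in every library, which left 22 snoRNA genes to test, 14 were depleted in the IP in WT26, 15 in *Mettl14* KO, 14 in RBC and 9 in *Mettl3* KO. Library-size scaling moved the median of all features in IP over input by 0.45, 0.45, 0.49 and 0.37 and gave 42, 40, 39 and 26 calls, all lower except Snord42b, higher in *Mettl14* KO. Leaving out each library in turn gave 1 to 2 calls in RNA-seq in *Mettl14* KO, 1 to 5 in *Mettl3* KO and 3 to 13 in RBC against WT26, and in IP over input 17 to 50 in WT26, 14 to 51 in *Mettl14* KO, 14 to 54 in RBC and 7 to 17 in *Mettl3* KO. An arm left with 1 library is assumed to vary like the other groups, and the cause of the shifts was not tested. A replicate block gave 1, 0 and 3 calls in RNA-seq and 0 in the inputs. The block on pairs of input and IP gave 54, 48, 52 and 24 calls in IP over input and 0 for its change. No alternative run called a snoRNA gene in the inputs or for a change of IP over input. Of 1097 values of named genes under the alternatives, 855 kept their side of the threshold and direction, 238 lost the call, 3 gained one and 1 reversed. The last was Snord42b in *Mettl3* KO, whose IP over input was -0.24 without IP replicate 2 and 0.82 without IP replicate 1. Without Snora73a and Snora73b, an alternative chosen after seeing the data, the mean difference of IP minus input in class shares was 19.9 percentage points for box C/D, -0.19 for H/ACA and -19.7 for Cajal body genes, against 27.1, -20.5 and -6.63 with them.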
